A study of Mus musculus with 3 samples.

Results

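The G1 cyclins and the inhibitors that hold them in check comprised 10 genes here: the D cyclins Ccnd1, Ccnd2 and Ccnd3, the E cyclins Ccne1 and Ccne2, the Cip/Kip inhibitors Cdkn1a, Cdkn1b and Cdkn1c, and the INK4 locus genes Cdkn2a and Cdkn2b. They were chosen by symbol, not by a measured value, though with earlier results of these data known. All 10 were found among the 33696 genes counted. Transcripts of single cells were counted in 3 libraries, each from a separate pool of 10 larynges from 5 male and 5 female mice of the genotype Lrig1CreERT2/+; ROSA LSL-tdTomato/+. All cells were tdTomato-sorted 24 h after tamoxifen-induced recombination, so there was 1 condition and the comparisons are between groups of cells of the same libraries. CreERT2 is driven by the Lrig1 locus, so the label marks cells in which that locus is active, and every mouse carries 1 recombinase-bearing copy of Lrig1. Larynges of wild-type and reporter-only mice were used to set the sorting gates and were not sequenced in these libraries. The age of the mice is not given in the sources used here.

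D cyclins bind CDK4 and CDK6 and are the first cyclins to respond to growth signals. They start the phosphorylation of the retinoblastoma protein, which releases E2F factors, and E2F factors in turn drive the E cyclins, the partners of CDK2 at entry into S phase. The Cip/Kip proteins p21 (Cdkn1a), p27 (Cdkn1b) and p57 (Cdkn1c) bind cyclin and kinase complexes, p15 (Cdkn2b) and p16 (Cdkn2a) bind CDK4 and CDK6, and Cdkn2a also encodes the p53 activator p19ARF. A quiescent stem cell is commonly described by low cyclin and high Cip/Kip levels, p27 and p57 above all. The study addresses quiescent stem cells marked by Lrig1, and these genes bear on quiescence, here at the level of RNA and not of protein.

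Levels are given as CPM, the usual depth-normalised count of a gene relative to the summed UMIs of the same group of cells. A UMI is 1 captured transcript counted at its 3′ end, so levels need no division by transcript length, and the products of Cdkn2a cannot be told apart. After the limits on cells and the removal of doublets, libraries 1, 2 and 3 held 13222, 7201 and 24119 cells, with medians of 10541, 13991 and 10724 UMIs per cell. Between 22 and 105 cell barcodes were shared by a pair of libraries. Cells were assigned to 13 classes by minimum and, for some classes, maximum UMI counts of marker genes that include no cyclin and no inhibitor. This placed 26738 of 44542 cells (60.0%) in 1 class and left 17583 (39.5%) in none. The basal classes were split by whether a Nkx2-1 UMI was captured, so a cell whose Nkx2-1 RNA was missed could count as Krt14+ basal. Lists of further marker genes, none of them in the gates but Des, were highest in the class they name, except in basal cells. The basal list was higher in suprabasal squamous cells (mean 9990 CPM) than in Krt14+ basal cells (7670) and Nkx2-1+ basal cells (5680), and the macrophage list, which holds Lyz2, reached 12000 CPM in Muc5b-high cells against 16300 in macrophages. In Krt14+ basal cells the squamous list averaged 491 CPM and the secretory airway list 3600 CPM, against 135 and 7730 CPM in Nkx2-1+ basal cells. Krt14+ basal cells are thus not all shown to be of squamous epithelium.

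In the GRCm39 annotation the genes lie on 4 chromosomes. Cdkn2a (chr4:89192708-89212890) and Cdkn2b (chr4:89223204-89229276) are neighbours on the minus strand, and Ccne2 lies on the same chromosome (chr4:11190303-11204947, plus strand). Ccnd2 (chr6:127102125-127129156, minus) and Cdkn1b (chr6:134897364-134902476, plus) share chromosome 6. Chromosome 7 carries Ccne1 (chr7:37797404-37808264), Ccnd1 (chr7:144483668-144493662) and Cdkn1c (chr7:143012069-143014806), all on the minus strand, and chromosome 17 carries Cdkn1a (chr17:29309936-29319701) and Ccnd3 (chr17:47815767-47910624), both on the plus strand. Cdkn1c overlaps a second gene of its own strand in the files, 4933417O13Rik, so reads from the shared part could have been lost to its count.

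The D cyclins differed between classes in which of them led. Ccnd2 was the most abundant of the 3 in basal cells, suprabasal cells and fibroblasts, Ccnd3 in satellite cells, the stem cells of skeletal muscle. Ccnd1 was highest in suprabasal squamous and Krt14+ basal cells. In Krt14+ basal cells, Ccnd2 stood at 746, 653 and 778 CPM in libraries 1, 2 and 3. Nkx2-1+ basal cells, which carry the transcription factor of the airway, held 417, 403 and 439 CPM. These ranges did not overlap, and no class came above Krt14+ basal cells. Fibroblasts (400, 495 and 568 CPM) and suprabasal cells (445, 444 and 503 CPM) followed and overlapped each other.

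At the other end of the order of Ccnd2, satellite cells without Myod1 or Myog held 24.2, 10.4 and 35.7 CPM, and Muc5b-high mucous cells 13.9, 15.7 and 42.4 CPM. Mean levels thus ran over a 40.3-fold range, from 725 ± 65.2 CPM (SD, n = 3) in Krt14+ basal cells to 18.0 ± 10.4 CPM in satellite cells with Myod1 or Myog. Secretory cells, at 166, 151 and 161 CPM, and ciliated cells, at 101, 117 and 163 CPM, lay well below the Nkx2-1+ basal cells of the same epithelium. In both cases every library of the luminal class was below every library of the basal class.

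Ccnd1 was highest in suprabasal squamous cells, at 346, 236 and 423 CPM, and in Krt14+ basal cells, at 323, 221 and 419 CPM. The ranges of these classes overlapped. Macrophages came next, at 217, 175 and 321 CPM, with only 22 and 30 cells in libraries 2 and 3. Nkx2-1+ basal cells held 221, 193 and 275 CPM, ciliated cells 72.8, 65.7 and 109 CPM, and fibroblasts 64.3, 61.6 and 76.3 CPM. Of the 12 steps between neighbouring classes in the order of Ccnd1, 1 was larger than the spread over libraries, the step down to neuroendocrine cells (29.4 and 38.5 CPM, in 2 libraries with at least 20 such cells).

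Ccnd3 was highest in satellite cells. Satellite cells without Myod1 or Myog held 318, 436 and 338 CPM, against 94.0, 137 and 76.0 CPM in Krt14+ basal cells and 55.2, 106 and 67.9 CPM in suprabasal cells. Every satellite library was above every library of those 2 classes. Over the 37 class sums of the 3 libraries, log2(CPM + 1) of Ccnd3 and Ccnd2 had a Pearson correlation of -0.721, which describes sums that share libraries and is not a test.

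**Figure D1:**
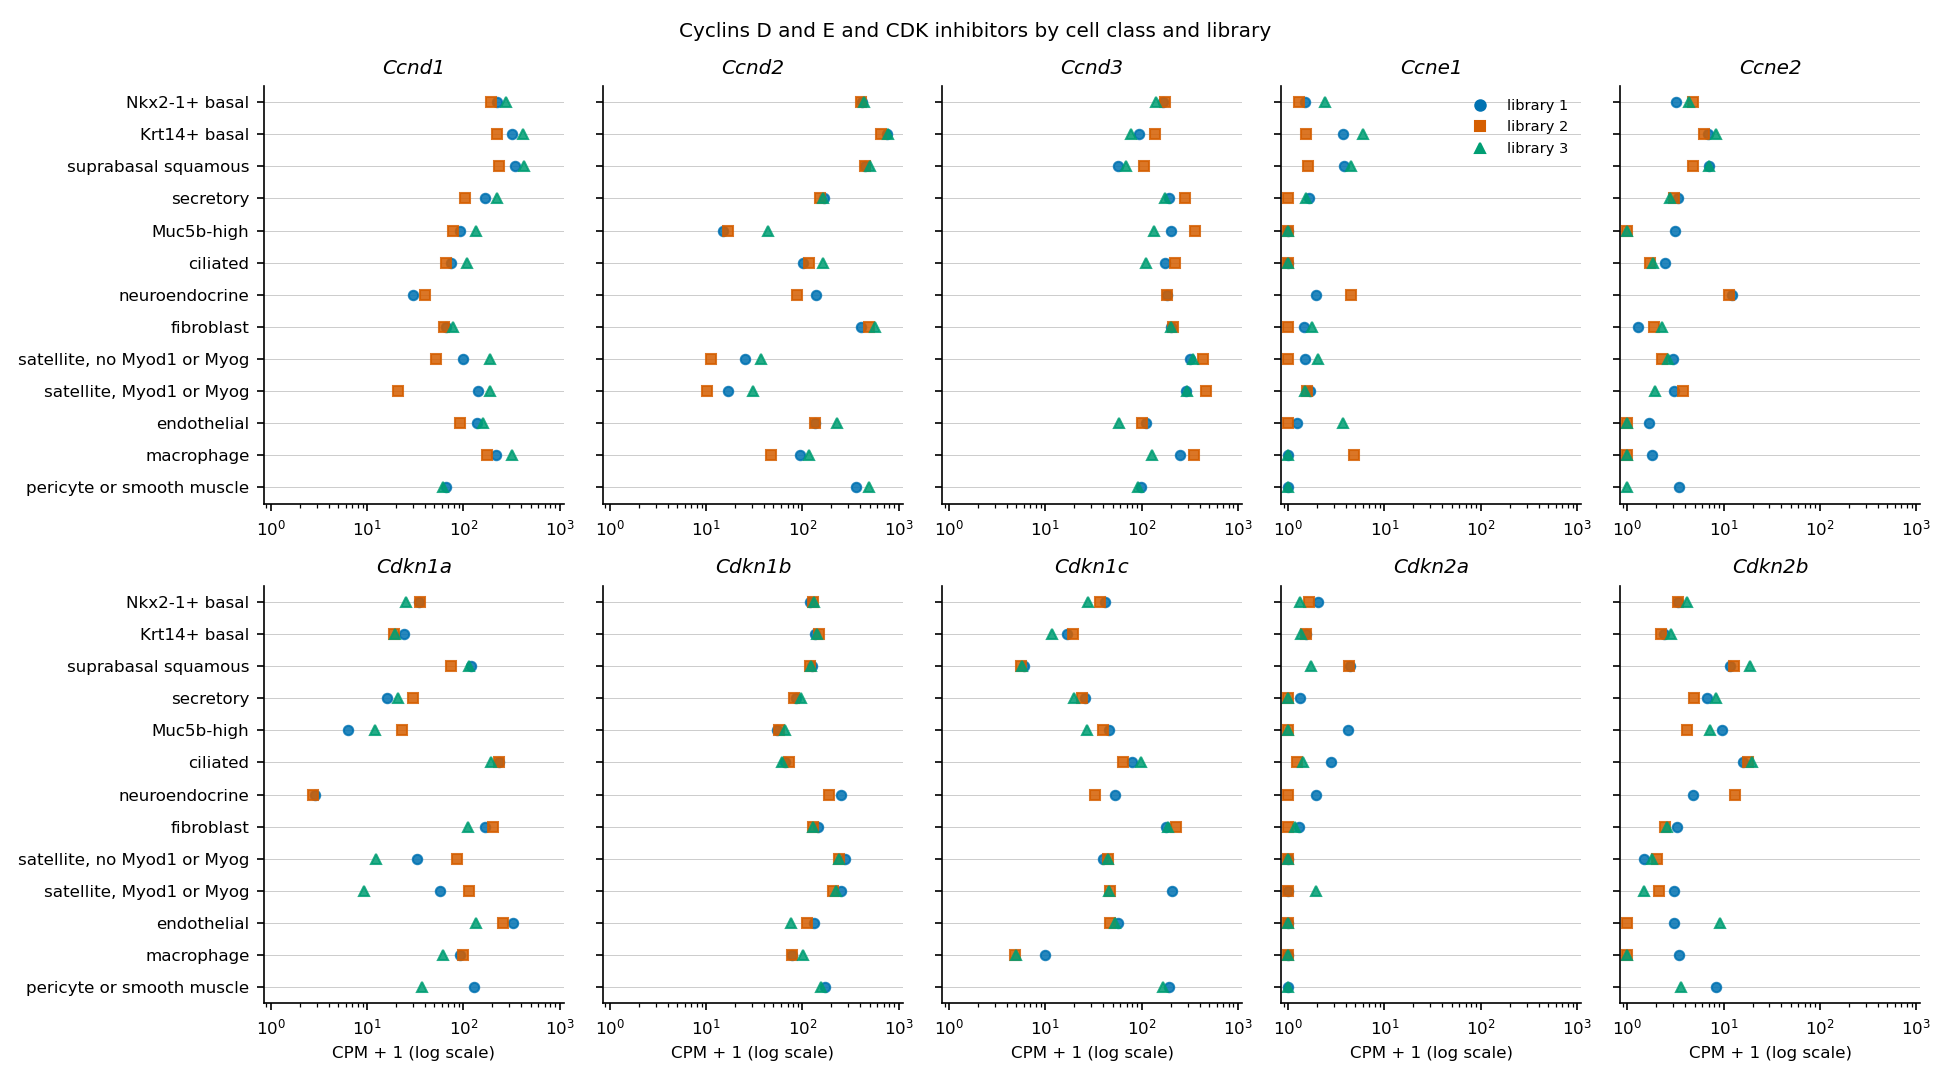
Level of each of the 10 genes (x axis, CPM + 1, log scale) in 13 cell classes (y axis), with 1 point per library and class of at least 20 cells. Ccnd2 ran from 725 CPM in Krt14+ basal cells to 18.0 CPM in satellite cells with Myod1 or Myog, while Cdkn1b stayed within 58.2 to 250.0 CPM in every class mean.

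In basal cells the share of Ccnd2 in the pooled D cyclin transcripts varied little between libraries, while in several other classes the make-up varied more. Ccnd2 gave 64.2%, 64.6% and 61.1% of the D cyclin UMIs in Krt14+ basal cells and 5.51%, 2.08% and 6.37% in satellite cells without Myod1 or Myog. Ccnd3 gave 72.3%, 87.7% and 60.3% in those satellite cells and 8.09%, 13.6% and 5.97% in Krt14+ basal cells. The ranges of the 2 classes were far apart for both genes. The share of Ccnd3 moved further in satellite cells with Myod1 or Myog (65.2%, 94.2% and 57.3%), Muc5b-high cells (66.0%, 79.5% and 42.9%) and macrophages (44.8%, 61.3% and 22.7%). In secretory cells the leading D cyclin changed with library, with Ccnd1 at 32.1%, 19.3% and 40.1%, Ccnd2 at 31.6%, 28.4% and 28.8% and Ccnd3 at 36.4%, 52.3% and 31.1%. The cells left without a class held 374, 367 and 512 CPM of Ccnd2, a range that took in all libraries of Nkx2-1+ basal cells.

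**Figure D2:**
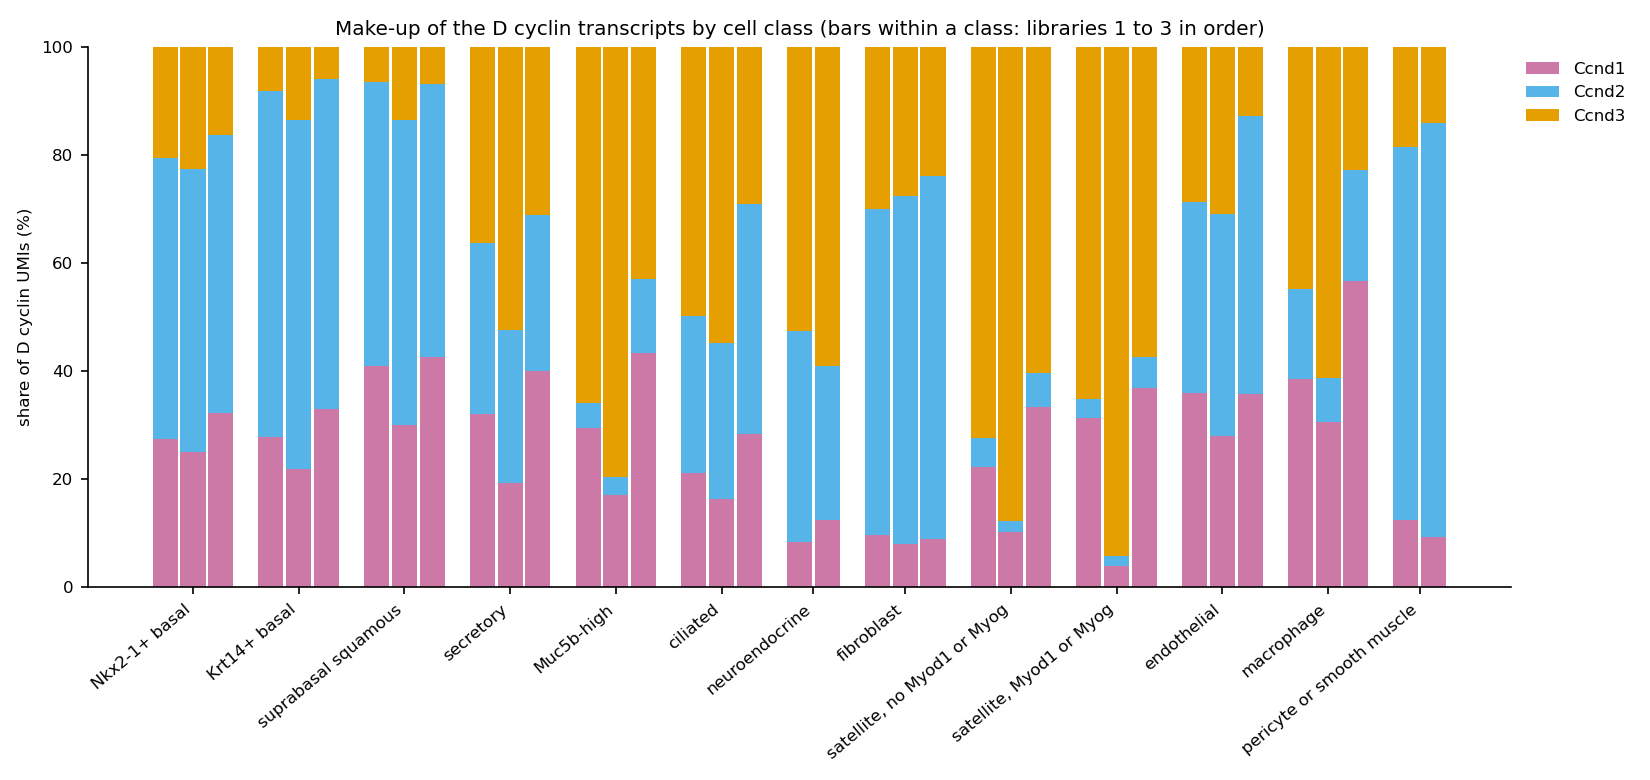
Share of D cyclin UMIs (y axis, %) that came from Ccnd1, Ccnd2 and Ccnd3 in each class, with 1 bar per library, libraries 1 to 3 from left to right (neuroendocrine cells: 1 and 2, pericytes: 1 and 3). Ccnd2 made up 61.1% to 64.6% in Krt14+ basal cells, and Ccnd3 60.3% to 87.7% in satellite cells without Myod1 or Myog.

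Within a class, libraries differed in the same direction for several members. Ccnd1 was highest in library 3 and lowest in library 2 in all 11 classes that had at least 20 cells in every library, with a median log2 ratio of library 3 to library 2 of 0.841. Ccnd3 went the other way, highest in library 2 in 10 of 11 classes, and Cdkn1a was highest in library 2 in 7 and lowest in library 3 in 7. A list of 12 genes that respond to tissue dissociation, Fos, Jun, Atf3 and others, moved with library in muscle. In satellite cells without Myod1 or Myog it summed to 17980 CPM in library 2 against 1786 and 1814 CPM in libraries 1 and 3. In Krt14+ basal cells the sums were 2700, 2164 and 1307 CPM. Its part in the library pattern was not tested.

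E cyclins were rare in every class. Ccne2 was highest in neuroendocrine cells, at 11.4 and 10.5 CPM in 2 libraries, resting on few cells, and in Krt14+ basal cells at 5.86, 5.30 and 7.33 CPM. Ciliated cells held 1.49, 0.709 and 0.846 CPM. Ccne1 reached 2.69, 0.548 and 4.97 CPM in Krt14+ basal cells, with libraries further apart than most classes. No Ccne1 UMI was found among 15669604 UMIs of ciliated cells, a count of 0 that allows up to 0.191 CPM.

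RefSeq promoters, 250 bases before to 50 after a start site on GRCm38.p6, were at hand for 6 members. Ccnd1, Ccnd2, Ccne2 and Cdkn1c had no entry. They were searched on both strands for the E2F motif in its forms TTTCCCGC, TTTCGCGC, TTTGCCGC and TTTGGCGC, which 2.26% of all 32851 promoters hold at least once. Among 9 promoters of the 6 members, 1 held a match, TTTCCCGC in the upstream of the 2 Cdkn2a promoters, starting 99 bases before the start site, and no match overlapped another. The 2 Cdkn2a promoters and that of Ccne1 are shown because 1 of them holds the match and because the UMIs of both genes in cycling cells are described further on. Capitals mark the match, and all are read 5′ to 3′ along the minus strand. A match or its absence describes these letters and says nothing of binding.
Cdkn2a, upstream start (chr4:89294570-89294869): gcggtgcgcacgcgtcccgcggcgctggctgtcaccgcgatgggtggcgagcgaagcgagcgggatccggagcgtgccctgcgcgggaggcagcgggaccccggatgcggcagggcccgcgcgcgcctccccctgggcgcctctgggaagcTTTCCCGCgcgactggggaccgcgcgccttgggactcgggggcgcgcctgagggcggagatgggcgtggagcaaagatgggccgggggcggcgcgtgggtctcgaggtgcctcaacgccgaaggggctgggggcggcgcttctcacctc
Cdkn2a, downstream start (chr4:89282143-89282442): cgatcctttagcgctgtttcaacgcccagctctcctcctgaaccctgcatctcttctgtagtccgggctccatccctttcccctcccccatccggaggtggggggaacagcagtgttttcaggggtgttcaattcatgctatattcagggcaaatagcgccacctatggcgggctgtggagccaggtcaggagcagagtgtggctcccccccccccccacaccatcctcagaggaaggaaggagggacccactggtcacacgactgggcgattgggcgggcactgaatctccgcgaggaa
Ccne1 (chr7:38107441-38107740): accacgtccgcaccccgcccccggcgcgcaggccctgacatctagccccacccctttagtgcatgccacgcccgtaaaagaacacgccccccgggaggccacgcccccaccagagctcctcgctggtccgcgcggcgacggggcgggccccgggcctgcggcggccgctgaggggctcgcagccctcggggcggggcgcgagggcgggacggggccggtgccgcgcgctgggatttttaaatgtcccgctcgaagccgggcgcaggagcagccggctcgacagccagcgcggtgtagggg

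The Cip/Kip genes divided the tissue differently. Cdkn1a, the p53 target p21, was high in endothelial cells (328, 256 and 135 CPM), ciliated cells (231, 231 and 193 CPM) and fibroblasts (168, 203 and 112 CPM). Endothelial cells numbered only 30 and 40 in libraries 2 and 3. Suprabasal squamous cells held 120, 72.9 and 114 CPM, and Krt14+ basal cells 23.0, 17.9 and 18.7 CPM. The suprabasal range lay wholly above the basal range. Neuroendocrine cells were at 1.89 and 1.75 CPM, the lowest of the classes and apart from the next, with a 132-fold range of class means in all.

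Cdkn1b, which encodes p27, varied least. Its class means ran over a 4.30-fold range, from 58.2 ± 6.0 CPM (SD, n = 3) in Muc5b-high cells to 250.0 ± 22.1 CPM in satellite cells without Myod1 or Myog. The 3 libraries of those satellite cells stood at 276, 237 and 237 CPM, those of Krt14+ basal cells at 135, 146 and 142 CPM and those of ciliated cells at 65.6, 72.3 and 60.5 CPM. None of these 3 ranges overlapped.

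Cdkn1c, which encodes p57 and is expressed from the maternal allele, was highest in fibroblasts and in pericytes or smooth muscle cells. Ciliated cells, at 63.3 to 96.8 CPM over the libraries, were above endothelial cells (mean 50.8 CPM) and satellite cells without Myod1 or Myog (41.9 CPM). Fibroblasts held 177, 225 and 189 CPM, Nkx2-1+ basal cells 40.4, 35.9 and 26.5 CPM, Krt14+ basal cells 16.0, 18.5 and 10.7 CPM and suprabasal cells 5.02, 4.59 and 4.66 CPM. Fibroblasts and these 3 epithelial classes were separated in every library, in that order. Satellite cells with Myod1 or Myog, genes of muscle commitment, held 204, 46.0 and 44.8 CPM, so that library 1 stood apart. Of the 299 Cdkn1c UMIs there, 204 (68.2%) came from 4 of 181 cells, those with Myog UMIs. All 4 held Cdkn1c, with 103 of the 204 UMIs in 1 cell. Of those 4 cells, 2 also carried Mymk, the myoblast fusion gene, with 43 UMIs in all and 29 in 1 cell. Mymk had no UMI in the satellite cells of library 1 without Myog. The remaining 177 cells held 67.4 CPM of Cdkn1c. Myog and Mymk were looked at after the values of Cdkn1c were seen. In library 3, 4 cells with Myog held no Cdkn1c UMI.

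INK4 genes were low. Cdkn2b, which encodes p15 and is a target of TGF-beta, was highest in ciliated cells, at 15.1, 17.0 and 18.6 CPM, and in suprabasal cells, at 10.6, 11.8 and 17.6 CPM, against 1.40, 1.22 and 1.87 CPM in Krt14+ basal cells. Both were above the basal range in every library. Cdkn2a gave 225 UMIs over all classes and libraries, with 3.42, 3.25 and 0.743 CPM in suprabasal cells and 0.550, 0.548 and 0.359 CPM in Krt14+ basal cells.

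Set against each other, D cyclin UMIs outnumbered Cip/Kip UMIs 6.69, 5.54 and 7.43 to 1 in Krt14+ basal cells and 4.14, 3.90 and 4.68 to 1 in Nkx2-1+ basal cells. The ratio was 0.920, 1.10 and 1.10 in ciliated cells, 1.36, 1.38 and 1.98 in fibroblasts and 1.27, 1.36 and 1.92 in satellite cells without Myod1 or Myog. Secretory cells, at 4.22, 4.05 and 4.16, and suprabasal cells, at 3.38 to 4.12, overlapped Nkx2-1+ basal cells. Krt14+ basal cells were highest in each library. A ratio of transcripts is not a ratio of proteins.

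Differences between classes were tested on UMI sums per library with edgeR's quasi-likelihood test across all genes, at a Benjamini-Hochberg adjusted p under 0.05. These fits, and those with a library left out, had no block for the library unless stated. Between Krt14+ basal and suprabasal squamous cells, 4 of 10 members were called, Cdkn2a included, where 12.9% of 18015 genes were, and nothing is read from this count. Cdkn2b was higher in suprabasal cells by a log2 fold change of 3.24 ± 0.32 (SE, adjusted p = 2.1e-08) and Cdkn1a by 2.49 ± 0.53 (0.0012), and Cdkn1c differed by -1.53 ± 0.37 (0.0041). Cdkn2a stood at 2.42 ± 0.70 (0.022), but it needed the suprabasal group, where it was high, to pass the filter on low counts. Its call is therefore a value and not support. Cdkn1a and Cdkn2b on one side and Cdkn1c on the other thus went opposite ways between these classes. Ccnd2 had a value of -0.53 ± 0.28 (0.25) and Cdkn1b of -0.09 ± 0.14 (0.77). Without library 1 the adjusted p of Cdkn1a was 0.107 at a log2 fold change of 2.44, without library 2 that of Cdkn1c was 0.0925, and that of Cdkn2a was 0.239 and 0.152 without library 1 or 2. The median suprabasal cell held 24219, 28142 and 24857 UMIs against 15988, 19807 and 14128 in Krt14+ basal cells. At 5000 UMIs per cell, Cdkn1a, Cdkn2b and Cdkn1c were still called and Cdkn2a was not (adjusted p = 0.152). The call of Cdkn2a was also lost with DESeq2 (0.0974) and with the minima of the gates doubled (0.128). Cells with at least 2 UMIs of the proliferation gene Mki67 made up 8.94%, 4.33% and 12.1% of suprabasal and 5.47%, 1.9% and 6.38% of Krt14+ basal cells. These shares rest on full counts in classes of unlike depth and were not compared at equal depth. The part of cells with at least 2 Mki67 UMIs in the differences between classes was not tested.

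Krt14+ basal and suprabasal cells without Mki67 UMIs were also ordered by Krt13, a keratin of the upper layers, at 5000 UMIs per cell. Ccnd2 went from 758, 645 and 823 CPM in cells without Krt13 UMIs to 460, 421 and 504 CPM at 10 to 49 Krt13 UMIs. Cdkn1a went from 25.3, 14.6 and 16.6 CPM to 82.5, 99.1 and 113 CPM over the same bins, and Cdkn2b from 1.15, 0.873 and 1.82 CPM to 15.8, 15.4 and 20.1 CPM. At 50 or more Krt13 UMIs, in 44 cells of library 1 and 104 of library 3, Ccnd2 was at 177 and 287 CPM and Cdkn1a at 286 and 312 CPM. The bin of 1 to 2 Krt13 UMIs was out of order for Cdkn1a in library 1, with 13.8 CPM against 25.3 CPM without Krt13 UMIs, and in library 2, with 78.6 CPM against 47.8 CPM at 3 to 9. Ccnd1 was also higher at 10 to 49 (349, 232 and 406 CPM) than in the first bin (266, 201 and 391 CPM) in 3 of 3 libraries, by less, and its highest values, 401, 321 and 452 CPM, lay in the bins between. The bins were drawn with Krt13, part of the gate, and are a description.

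**Figure D3:**
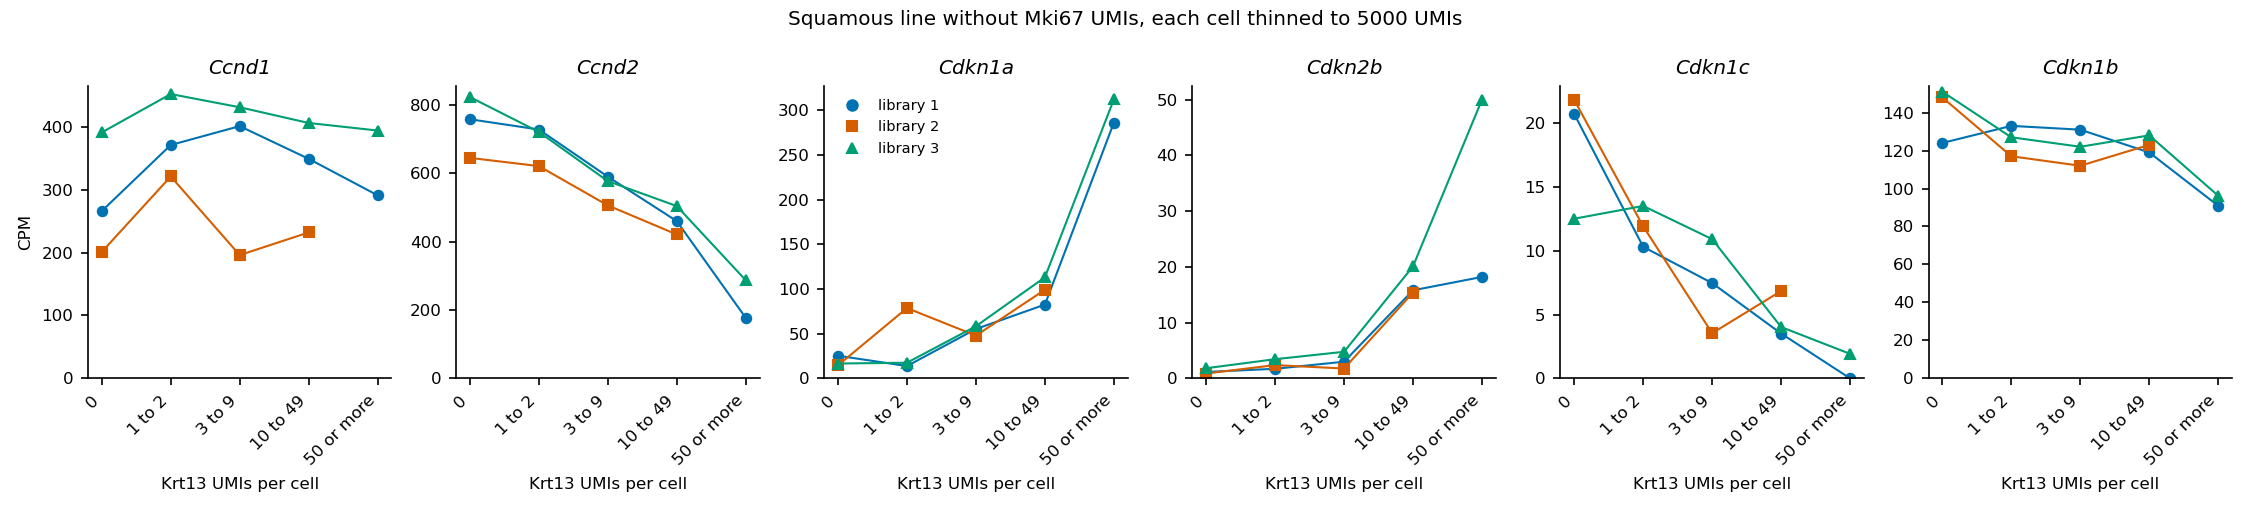
Levels (y axis, CPM, linear from 0) of 6 members in Krt14+ basal and suprabasal cells without Mki67 UMIs, by Krt13 UMIs per cell (x axis), each cell thinned to 5000 UMIs, 1 line per library. Ccnd2 is lower and Cdkn1a and Cdkn2b higher at 10 to 49 than at 0 Krt13 UMIs in all 3 libraries, and library 2 had under 20 cells in the last bin.

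In the airway epithelium, secretory cells differed from Nkx2-1+ basal cells in 2 of 10 members, beside 13.5% of all genes. Ccnd2 was lower, by a log2 fold change of -1.19 ± 0.29 (SE, adjusted p = 0.0037), and Cdkn2b higher, by 1.31 ± 0.32 (0.0037). In the fits without a block both calls needed library 1, without which the adjusted p was 0.142 for Ccnd2 and 0.189 for Cdkn2b. With the library as a block, 4 members passed, beside 20.9% of genes, the additional ones being Cdkn1b at -0.34 ± 0.12 (0.048) and Ccnd3 at 0.60 ± 0.19 (0.022).

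Ciliated cells, which are postmitotic, differed from Nkx2-1+ basal cells in 8 of 10 members, but 58.3% of all genes did so as well. Cdkn1a (2.95 ± 0.53, adjusted p = 1.7e-05), Cdkn2b (2.76 ± 0.31, 4.8e-09) and Cdkn1c (1.33 ± 0.32, 6.5e-04) were higher. Cdkn1b was lower (-0.81 ± 0.15, 1.7e-05), as were Ccnd2 (-1.61 ± 0.29, 1.9e-05), Ccnd1 (-1.36 ± 0.41, 0.0048) and Ccne2 (-1.43 ± 0.44, 0.0063). The inhibitors thus did not move as a group in these cells. The dissociation list was at 396 to 442 CPM in ciliated and 1180 to 1940 CPM in Nkx2-1+ basal cells, and its part in these values was not tested. Ccne1, with no UMI in ciliated cells, had 15, 7 and 141 UMIs in Nkx2-1+ basal cells, so that library 3 gave most of the basal UMIs, and no fold is given. The call of Ccnd1 was lost without library 1 (adjusted p = 0.146), that of Ccne2 without library 2 (0.115) and that of Ccne1 without library 1 (0.146) or 3 (0.141) and at 5000 UMIs per cell (0.106). TMM left a median log2 fold change of -0.19 over all genes in this comparison and size factors of the RLE kind 0.02, a shift smaller than these values, and no called member changed direction or lost its call.

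Fibroblasts against the mean of both basal classes gave 5 of 10 members, beside 59.7% of all genes. Cdkn1c was higher by 3.09 ± 0.26 on the log2 scale (SE, adjusted p = 7.8e-12), Cdkn1a by 2.67 ± 0.42 (1.7e-06) and Ccnd3 by 0.65 ± 0.27 (0.038). Ccnd1 (-2.02 ± 0.38, 2.9e-05) and Ccne2 (-2.45 ± 0.39, 1.9e-06) were lower. Ccnd2 (-0.20 ± 0.25) and Cdkn1b (-0.03 ± 0.12) did not pass. With the library as a block 7 members passed, beside 65.3% of genes, the additional ones being Ccne1 at -1.63 ± 0.47 (0.0034) and Cdkn2a at -1.51 ± 0.65 (0.044). The call of Ccnd3 was lost without library 1 (adjusted p = 0.196), without library 3 (0.0946) and with doublets kept (0.0597).

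In satellite cells without Myod1 or Myog, 8 of 10 members differed from the basal mean, beside 51.4% of all genes. Ccnd2 was lower by the largest amount of any member in any class comparison among those with UMIs in both groups, -4.62 ± 0.32 (SE, adjusted p = 1.1e-13). Ccnd3 (1.47 ± 0.27, 2.3e-05), Cdkn1b (0.86 ± 0.12, 3.6e-07) and Cdkn1c (0.84 ± 0.28, 0.014) were higher, and Ccnd1 (-1.36 ± 0.37, 0.0024), Ccne2 (-1.47 ± 0.39, 0.0022) and Cdkn2b (-1.42 ± 0.46, 0.0098) lower. Cdkn2a had no UMI in these satellite cells and was at least 2.04-fold lower, taking 3 counts over the group as the floor. With the library as a block 9 members passed, beside 56.7% of genes, the additional one being Ccne1 at -1.51 ± 0.61 (0.038). Leaving out a library ended the call of Ccnd1 (without library 1, 0.119), Cdkn1c (without 2, 0.0641, or 3, 0.104), Cdkn2b (without 1, 0.0924, or 3, 0.0801) and Cdkn2a (without 1, 0.106, or 2, 0.135). At 5000 UMIs per cell the calls of Cdkn2a (adjusted p = 0.0930) and Cdkn2b (0.0683) were lost.

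Satellite cells with Myod1 or Myog did not differ from those without in any member, and 0% of 18015 genes passed edgeR's test. At an unadjusted p under 0.05 there were 527 genes, DESeq2 called 4 genes and no member, and the fit with the library as a block called 1 gene (0.00555%). Cdkn1c had the largest value of the members with UMIs in each library, 1.18 ± 0.35 (SE, adjusted p = 1). The 4 Myog cells of library 1 gave 204 of its 299 UMIs there. The other 177 cells held 67.4 CPM, against 38.3 CPM in satellite cells without Myod1 or Myog of that library. A fit without those 4 cells was not run.

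The next comparison asked which members follow the cell cycle. Cells with at least 2 Mki67 UMIs, a gene expressed outside quiescence, were compared with cells of the same class, library and depth that had none. There were 49, 14 and 219 such cells among Krt14+ basal cells and 20, 13 and 164 among Nkx2-1+ basal cells. Fibroblasts and satellite cells had 0 to 3 per library, too few for the comparison. In both basal classes Ccnd3 fell, and Ccnd1 and the Cip/Kip genes did not pass the test. Ccne2 in both classes, Ccne1 in Krt14+ and Cdkn2a in Nkx2-1+ basal cells were called as higher, but each needed the cycling group, where it was high, to pass the filter on low counts. Their calls are therefore values and not support.

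In Krt14+ basal cells, cycling cells held 21.5, 24.8 and 33.6 CPM of Ccne2 against 4.11, 3.09 and 3.70 CPM in matched cells. The groups were far apart, and the log2 fold change was 2.96 ± 0.27 (SE, adjusted p = 8.8e-06). Ccne1 went from 0.432, 0 and 2.72 CPM to 14.0, 9.30 and 25.7 CPM (3.47 ± 0.52, adjusted p = 8.0e-04). Of the 3 matched sums, 2 reached the minimum of the filter for Ccne2 and 0 for Ccne1. Ccnd3 went from 96.2, 133 and 75.8 CPM to 34.4, 74.4 and 40.9 CPM (-1.17 ± 0.27, 0.016). With Ccne1 and Ccne2 included, 3 of 8 members tested passed, beside 10.1% of 11437 genes, and nothing is read from this count. The call of Ccnd3 was lost without library 1 (adjusted p = 0.176) and when 1 Mki67 UMI was enough (0.280), as it was in Nkx2-1+ basal cells (0.0837).

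Nkx2-1+ basal cells gave 3 of 8 members, Cdkn2a and Ccne2 included, beside 11.5% of 11049 genes, and nothing is read from this count either. Ccne2 was at 13.1, 3.50 and 25.7 CPM in cycling and 3.08, 6.27 and 2.11 CPM in matched cells, so that library 2, with 13 cycling cells and 1 Ccne2 UMI, went the other way (2.65 ± 0.53, adjusted p = 0.0070, and 0.114 without library 1). Ccnd3 was at 69.8, 119 and 54.7 CPM against 146, 194 and 133 CPM (-1.14 ± 0.27, 0.017, and 0.231 without library 1). Cdkn2a was at 28.4, 14.0 and 6.92 CPM, on 13, 4 and 21 UMIs, against 0, 0.697 and 0.396 CPM, on 0, 1 and 6 UMIs (5.03 ± 0.75, adjusted p = 9.2e-04). With each library left out in turn its adjusted p was 0.0024 to 0.033. Of the 3 matched sums, 0 reached the minimum of the filter for Cdkn2a and 1 for Ccne2. In Krt14+ basal cells Cdkn2a had 2, 2 and 8 UMIs in cycling and 2, 0 and 2 in matched cells, below the filter on low counts, and with no such filter it was called there too (3.75, adjusted p = 0.0053). Ccne1, filtered out in Nkx2-1+ basal cells, had 5, 1 and 46 UMIs in cycling and 0, 0 and 21 in matched cells and was called without the filter (3.64, 1.1e-06).

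With the library as a block, 4 of 8 members passed in each class, again with Ccne2 and either Ccne1 or Cdkn2a among them, beside 14.5% of genes in Krt14+ and 14.6% in Nkx2-1+ basal cells. The additional one in both was Ccnd2, at -0.51 ± 0.15 (adjusted p = 0.045) and -0.62 ± 0.18 (0.025). In Krt14+ basal cells it stood at 458.5, 697 and 484 CPM in cycling and 794, 628 and 861 CPM in matched cells, so library 2 went the other way. In Nkx2-1+ basal cells the values were 203, 333 and 336 against 432, 384 and 479 CPM. Without library 1 the blocked values were -0.37 (0.271) and -0.37 (0.398), and without library 3 the call was lost in Krt14+ basal cells (-0.36, 0.256). Ccnd1 gave -0.11 ± 0.24 and 0.11 ± 0.18 and Cdkn1b 0.22 ± 0.16 and 0.36 ± 0.16 in the fits without a block. A list of squamous genes was higher in cycling than in matched cells of every library, 1040 to 1420 against 434 to 629 CPM in Krt14+ and 631 to 1010 against 106 to 276 CPM in Nkx2-1+ basal cells. A list of secretory airway genes was lower in cycling cells of every library, at 2730, 5300 and 4460 against 14800, 7300 and 10400 CPM in Nkx2-1+ and 1770 to 2340 against 3350 to 3970 CPM in Krt14+ basal cells. The dissociation list was lower in cycling Krt14+ basal cells, 791, 998 and 1190 against 2960, 2760 and 1290 CPM. The part of these lists in the differences was not tested.

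**Figure D4:**
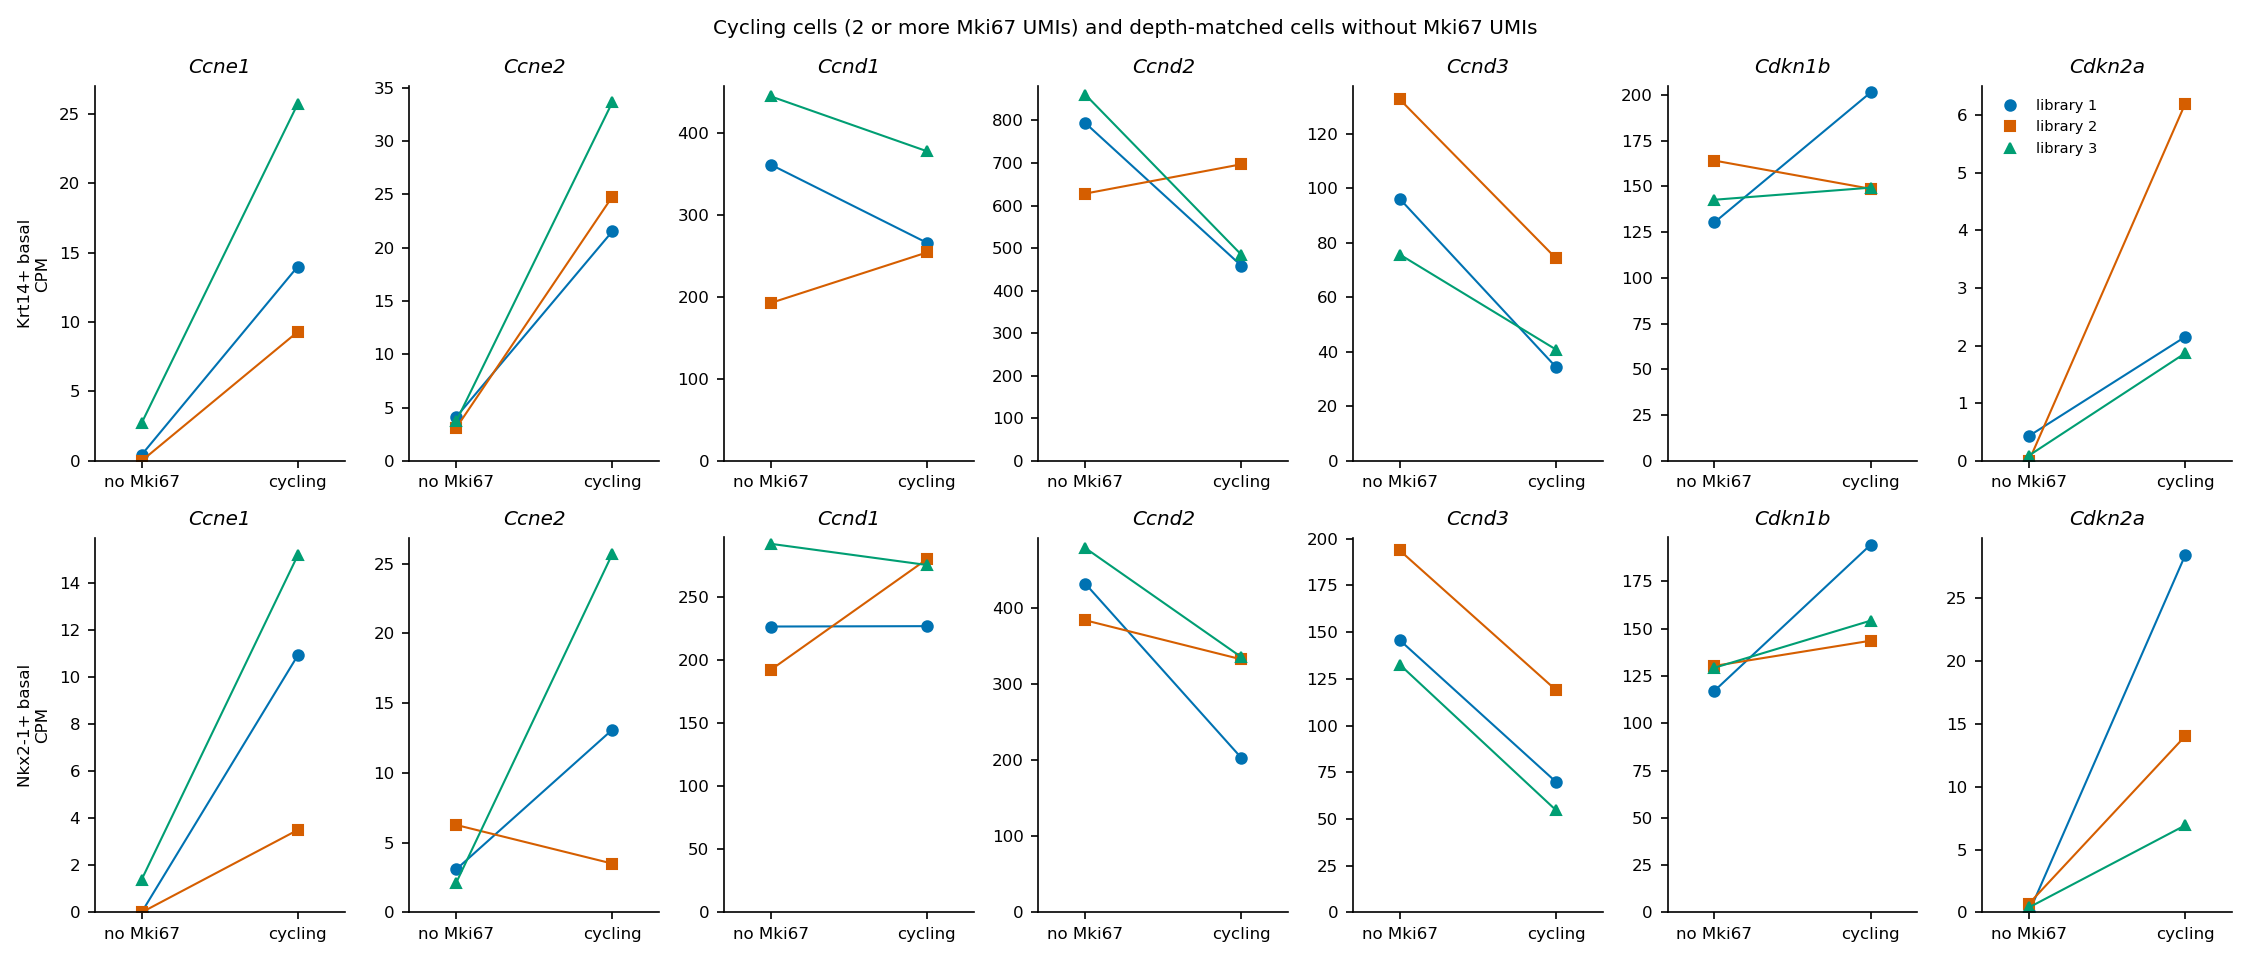
Levels (y axes, CPM, linear from 0) of 7 members in matched cells without Mki67 UMIs and in cycling cells of the same library, joined by a line, for Krt14+ basal cells (top row) and Nkx2-1+ basal cells (bottom row). Ccnd3 is lower in cycling cells in all 3 libraries of both classes, and Ccne2 is higher in all but library 2 of the Nkx2-1+ basal cells.

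Other genes of the cell cycle pathway moved with the Mki67 gate. Those that are rare outside cycling cells could have passed the filter only through the cycling group, so the counts are a description. Of 80 other pathway genes tested in Krt14+ basal cells 31 rose and 1 fell, where 10.1% of all genes were called, and of 81 in Nkx2-1+ basal cells 36 rose and 3 fell, where 11.5% were. All 11 tested genes of origin licensing and S phase rose in both classes. The other INK4 inhibitors, Cdkn2c and Cdkn2d, rose in both, with largest log2 fold changes of 1.59 and 2.37. Cyclins of the later phases rose in both, by up to 7.38 for Ccna2, 7.33 for Ccnb1 and 7.12 for Ccnb2, and their kinase Cdk1 by up to 4.95. Of 12 p53 genes tested in Krt14+ basal cells none rose and 1 fell, and of 11 in Nkx2-1+ basal cells none passed.

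The last comparison took up quiescence and Lrig1, a negative regulator of ErbB receptor signalling. Cells without Mki67 UMIs that had at least 1 Lrig1 UMI (Lrig1+) were matched 1 to 1 on depth with cells of the same class and library that had none (Lrig1-). All of them had been sorted as tdTomato-positive, so Lrig1- means no transcript captured. It does not by itself place a cell outside the Lrig1 lineage. The purity of the sort was not tested. A Lrig1 UMI was found in 57.9% to 69.1% of Nkx2-1+ basal cells, at medians of 13797 to 20758 UMIs per cell, and in 57.1% to 66.6% of Krt14+ basal cells. The share was 31.3% to 36.2% in fibroblasts and 36.6% to 54.8% in satellite cells without Myod1 or Myog. It was 0% to 6.67% in macrophages, at medians of 6948 to 12866 UMIs, and 5.84% to 15.0% in endothelial cells, at 5938 to 7948 UMIs. Free RNA can give single UMIs, and its part in the Lrig1 groups was not tested. The 3 libraries gave 581, 312 and 2125 pairs in Nkx2-1+ basal cells, 276, 231 and 1081 in Krt14+ basal cells, 168, 72 and 167 in secretory cells, 410, 69 and 529 in fibroblasts and 191, 167 and 240 in satellite cells without Myod1 or Myog.

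Without a block, no member and no gene passed edgeR's test in any of the 5 classes, 0% of 10510 to 13741 genes. At an unadjusted p under 0.05 there were 370 genes in Krt14+ basal, 632 in Nkx2-1+ basal, 901 in secretory, 246 in fibroblast and 168 in satellite cells, and DESeq2 called 8, 20, 9, 3 and 0 genes, none of them a member, although it gave an adjusted p for only 2 members in secretory cells. In each library the pair of sums stems from 1 pool of larynges. With the library as a block, genes called came to 4.91% in Krt14+ basal, 7.50% in Nkx2-1+ basal, 4.87% in secretory, 0.0445% in fibroblast and 0% in satellite cells, and the members called were 0 of 7, 3 of 8, 1 of 7, 0 of 7 and 0 of 6.

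With the block, Ccnd1 was called in 2 of 5 classes, Nkx2-1+ basal and secretory cells, and was lower in Lrig1+ cells of both. In Nkx2-1+ basal cells it stood at 200, 190 and 248 CPM in Lrig1+ and 246, 202 and 296 CPM in Lrig1- cells. It was lower in 3 of 3 libraries, although the groups overlapped across libraries. The log2 fold change was -0.23 ± 0.04 with the block (SE, adjusted p = 0.0045) and -0.23 ± 0.13 without it (adjusted p = 1). The blocked call held in 6 of 7 further blocked fits and was lost when cells were thinned to 5000 UMIs and Lrig1 was called on the thinned counts (-0.16, 0.209).

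Secretory cells held 138.5, 51.4 and 217 CPM of Ccnd1 in Lrig1+ and 180, 52.9 and 244 CPM in Lrig1- cells. Libraries differed from each other by more than the groups did. The blocked log2 fold change was -0.42 ± 0.09 (adjusted p = 0.021), and it held in 1 of 7 further blocked fits, with adjusted p from 0.0019 to 0.997. With the minima of the gates doubled it was -0.0012. The fitted value is on TMM-scaled library sizes, while in CPM the ratios of Lrig1+ to Lrig1- cells were 0.768, 0.971 and 0.892, each nearer to 1 than the fitted value. Secretory markers summed to 95700, 65400 and 82800 CPM in Lrig1+ and 161000, 152000 and 139000 CPM in Lrig1- cells. The dissociation list was higher in Lrig1+ cells of every library, at 749, 1740 and 1090 against 657, 956 and 942 CPM. The part of both lists in the value of Ccnd1 was not tested.

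Satellite cells had the widest gap in Ccnd1, 93.4, 31.8 and 131 CPM in Lrig1+ against 99.2, 57.0 and 256 CPM in Lrig1- cells. The blocked value of -0.67 ± 0.14 did not pass (adjusted p = 0.12). It passed with the gates doubled (-0.72, 0.028), in cells without any UMI of 4 proliferation genes (-0.68, 0.0029) and without library 1 (-0.95, 7.8e-08), and missed without library 2 (-0.62, 0.438) or 3 (-0.36, 0.869). The secretory airway list was also lower in Lrig1+ satellite cells, at 693, 239 and 452 against 727, 293 and 1290 CPM. In library 3, which had the widest gap, the squamous list stood at 42.5 against 80.9 CPM and the basal list at 722 against 876 CPM. The part of these lists in the gap was not tested. Krt14+ basal cells gave -0.10 ± 0.05 (0.28), with 282, 226 and 395 CPM against 289, 219 and 453 CPM, and fibroblasts -0.25 ± 0.15 (adjusted p = 1).

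In Nkx2-1+ basal cells Ccnd2 was lower in Lrig1+ cells in 3 of 3 libraries, at 394, 395 and 422 against 443, 423 and 434 CPM (blocked -0.11 ± 0.03, adjusted p = 0.049). Ccnd3 was higher in 3 of 3, at 177, 184 and 145 against 155, 161 and 137 CPM (0.14 ± 0.04, 0.049). Both sat at the threshold. Ccnd2 passed in 0 and Ccnd3 in 2 of 7 further blocked fits. In secretory cells both were higher in CPM in Lrig1+ cells in 3 of 3 libraries, Ccnd2 at 169, 162 and 163 against 150.4, 129 and 141 CPM and Ccnd3 at 219, 299 and 195 against 182, 266 and 163 CPM. Their blocked values of 0.04 ± 0.09 (adjusted p = 0.85) and 0.04 ± 0.08 (0.81) did not pass.

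With the library as a block and no other change, none of the inhibitors tested passed in any class. Cdkn2a did not pass the filter on low counts in any class, nor Cdkn2b in Krt14+ basal and satellite cells, so these were not tested. In CPM, Cdkn2b was lower in Lrig1+ secretory cells in 3 of 3 libraries (ratios 0.318, 0.599 and 0.746), on 25 against 47 UMIs. It was higher in 1 of 3 libraries in Nkx2-1+ basal cells and in fibroblasts. Cdkn1b was at 119, 124 and 131 CPM in Lrig1+ and 126, 132 and 131 CPM in Lrig1- Nkx2-1+ basal cells, with a blocked log2 fold change of -0.06 ± 0.04 (adjusted p = 0.45). In Krt14+ basal cells the value was 0.01 ± 0.05 (0.96), in satellite cells 0.10 ± 0.08 (0.84), in fibroblasts 0.05 ± 0.11 (adjusted p = 1) and in secretory cells -0.37 ± 0.12 (0.086). Cdkn1c was at 37.4, 57.2 and 53.4 CPM in Lrig1+ against 34.9, 33.1 and 32.7 CPM in Lrig1- satellite cells. It was higher in 3 of 3 libraries and the ranges did not overlap, yet 0.54 ± 0.17 did not pass (0.52). In fibroblasts it was lower in 3 of 3, at 173, 190 and 157 against 181, 244 and 204 CPM (-0.27 ± 0.09, 0.76). Cdkn1a was lower in Lrig1+ cells in 3 of 3 libraries of both basal classes, with -0.24 ± 0.07 (0.073) in Nkx2-1+ and -0.33 ± 0.11 (0.12) in Krt14+ basal cells. In Nkx2-1+ basal cells it passed in 2 further blocked fits, at 2 or more Lrig1 UMIs (-0.32, 0.017) and in cells without UMIs of 4 proliferation genes (-0.35, 0.039), and missed in the other 5, with 0.06 (0.89) when the gates were doubled.

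**Figure D5:**
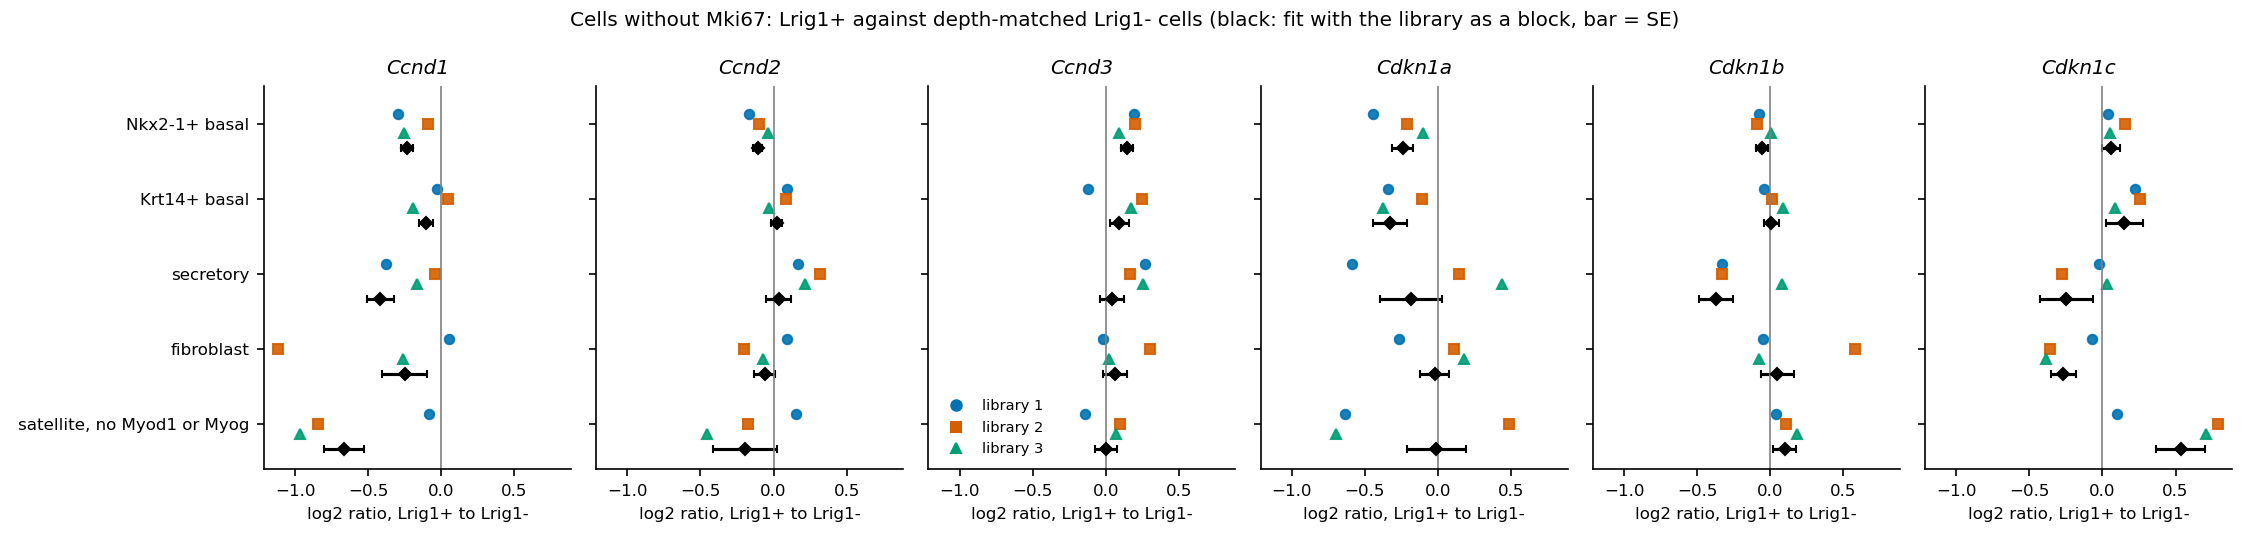
Log2 ratio of Lrig1+ to Lrig1- cells without Mki67 UMIs (x axes) for 6 members in 5 classes (y axis), with 1 coloured point per library from CPM and a black diamond for the fit with the library as a block, bars giving its SE. Ccnd1 sits left of 0 in all 3 libraries of the Nkx2-1+ basal, secretory and satellite cells, and the fitted Cdkn1b values of both basal classes are -0.06 and 0.01.

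The squamous list stood lower in Lrig1+ cells of both basal classes in every library, 42.4, 81.4 and 119 against 133, 139 and 229 CPM in Nkx2-1+ basal cells and 330, 278 and 389 against 546, 439 and 714 CPM in Krt14+ basal cells. In Nkx2-1+ basal cells the dissociation list was also lower in Lrig1+ cells, 1140, 1750 and 1160 against 1280, 1940 and 1220 CPM. The proliferation list, without Mki67 UMIs in either group, was at 4.01, 4.19 and 25.8 against 5.55, 5.82 and 29.3 CPM. In satellite cells the proliferation list went the other way, at 13 to 27.0 CPM in Lrig1+ against 9.98 to 18.9 CPM in Lrig1- cells, and was higher in Lrig1+ cells in 3 of 3 libraries. The part of these lists in the lower Ccnd1 was not tested. The ratio of D cyclin to Cip/Kip UMIs was 4.12, 3.89 and 4.42 in Lrig1+ and 4.14, 3.79 and 4.69 in Lrig1- Nkx2-1+ basal cells, and in satellite cells it was 1.22, 1.25 and 1.72 against 1.31, 1.51 and 2.45. It was higher in Lrig1+ cells of libraries 1 and 2 and lower in library 3 in Krt14+ basal cells (6.60, 5.59 and 7.43 against 6.19, 5.33 and 8.03) and in secretory cells (4.75, 4.12 and 4.14 against 3.77, 3.16 and 4.30). In fibroblasts it was higher in Lrig1+ cells of libraries 1 and 3 (1.46 and 2.10 against 1.29 and 2.00) and lower in library 2, so no direction was shared by the classes.

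Whether the Lrig1 contrast differed between the 5 classes was tested as an interaction, which called 142 of 14976 genes (0.948%) and no member. Ccne1 and Cdkn2a did not pass the filter on low counts and were not tested. Cdkn1c came nearest (adjusted p = 0.073), and Ccnd1 (0.31) and Cdkn1b (0.33) did not pass. A difference between classes in any member tested is therefore not shown here.

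Of the other pathway genes, the blocked fits of Lrig1+ against Lrig1- cells called 7 of 73 in Krt14+ basal cells, all lower (4.91% of all genes were called), 7 of 76 in Nkx2-1+ basal cells, 2 higher and 5 lower (7.50% of all genes), and 6 of 63 in secretory cells, 4 higher and 2 lower (4.87% of all genes). These counts describe the list and were not tested against other genes. Mitogen and FOXO regulators were among the lower ones, 4 of 11 tested in Krt14+ and 5 of 11 in Nkx2-1+ basal cells. Klf4, Id1 and Myc passed in more than 1 class, with largest log2 fold changes of -0.60, -0.49 and -0.44. The dissociation list, given above for Nkx2-1+ basal cells, was lower in Lrig1+ cells of libraries 1 and 3 and higher in library 2 in Krt14+ basal cells, at 2410, 2240 and 1240 against 3180, 1890 and 1360 CPM, and its part in these values was not tested. Myc encodes a growth factor-induced transcription factor and Id1 an inhibitor of differentiation factors. None of the kinases, the other INK4 inhibitors or the pocket proteins passed in any of the 5 classes.

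Of 85 other pathway genes, 11 were higher and 43 lower in ciliated than in Nkx2-1+ basal cells, where 58.3% of all genes were called, and 16 higher and 39 lower in fibroblasts than in basal cells, where 59.7% were. Between suprabasal and Krt14+ basal cells, where 12.9% of all genes were called, 1 of 85 was higher and none lower. The 12 p53 genes tested included none that passed there. Satellite cells had 27 higher and 22 lower, beside 51.4% of all genes. Over all class comparisons, Cdk6, a partner of the D cyclins, and Cdkn2c, the INK4 inhibitor p18, were each called in 3. Their largest log2 fold changes were -2.12 and -2.02. The comparisons behind these values are not named here, and no shared direction is read from them.

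Among 11088 genes of at least 10 CPM on average, those most like Cdkn1b over the 37 class sums were Cnbp (Pearson r = 0.915), Htatsf1 (0.905) and Rpp30 (0.905). Those most like Ccnd2 were Ptn (0.849), Procr (0.843) and Afap1l2 (0.820), and those most like Ccnd3 were Cdk14 (0.855), Ncoa1 (0.770) and Pnpla7 (0.768). Cdkn1c was nearest to 9530026P05Rik (0.919), Dbp (0.840) and Fermt2 (0.836), Cdkn1a to Fas (0.774), Tpm4 (0.768) and Pros1 (0.763), and Ccnd1 to Capg (0.805), Psat1 (0.787) and Foxe1 (0.787). Fas, like Cdkn1a, is a target of p53. The p53 genes Phlda3, Btg2 and Eda2r were called in 4, 2 and 4 class comparisons. Their largest log2 fold changes were -3.86, -3.05 and -2.875. The comparison behind each value is not named here, so these values are not set against those of Cdkn1a. A part of p53 in the levels of Cdkn1a was not tested. Class sums of 1 library share its depth and handling, and these values describe likeness only.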

How the data were processed

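Droplet single-cell 3′ RNA libraries were counted by the authors with Cell Ranger 8.0.1 on mm39, and the deposited values are raw UMI counts per gene and cell barcode. Limits on cells were 500 to 8000 genes, 1000 to 40000 UMIs and a mitochondrial share of up to 8%. Doublet removal took 0.4% per 1000 cells, using simulated doublets in 30 principal components of 2000 variable genes. Classes were set by minimum and, for some, maximum UMIs of marker genes. Counts were summed per library and group of at least 20 cells (cycling groups, any size) and tested with edgeR 4.0.16 (R 4.3.3; TMM, filterByExpr, quasi-likelihood F test, two-sided) with Benjamini-Hochberg adjustment over all genes. SE is the absolute log2 fold change over the square root of F.

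Cycling cells were matched with 5 and Lrig1+ cells with 1 cell within 0.1 log2 units of UMIs. Both sums of a library come from 1 pool of larynges, so the library as a block is a true pairing. Deviations of the 2 sums correlated at 0.146 to 0.821 for Lrig1 and 0.0532 to 0.399 for cycling. Further tools were DESeq2 1.42.0, numpy 2.4.6 and pandas 2.3.3. The scripts were tested on simulated data. Alternatives covered normalization, count filter, doublets, gates, depth, thresholds and each library left out. Named genes were the members, and of the pathway list those past the threshold in 2 or more comparisons of a kind, at most 3 a group by size of change, and the 3 genes most like each member of at least 10 CPM. Members, gates and lists were chosen with earlier results of these data known. Floors cover counting error only, while SD and SE take in the spread over libraries.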

Additional observations from a re-analysis of the deposited data

How the results depend on the processing

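Between cell classes 27 member calls were made over 6 comparisons, and 17 to 24 with 1 library left out, the fewest without library 1. The 27 include Cdkn2a of suprabasal cells, which is no support. Over all genes these comparisons gave 35284 calls, and 25103 to 31572 with 1 library left out, again the fewest without library 1. In cycling cells 6 calls became 10 with no filter on low counts and 3 to 8 with 1 library left out, and 6 to 10 with the replicate block as well, the most without library 2. In Lrig1+ against Lrig1- cells 0 calls became 4 with the library as a replicate block. Combined with the block, choices made after seeing the data gave 3 calls at 2 or more Lrig1 UMIs, 2 with the gates doubled, 3 in cells without UMIs of 4 proliferation genes (Cdkn1a of Nkx2-1+ basal cells is among both sets of 3), 0 with cells thinned to 5000 UMIs and 2 in each fit with 1 library left out.

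Over all genes, the 2430 cycling calls became 778 at 1 or more Mki67 UMIs, 4437 without depth matching, 831 without library 1, 1476 without library 3 and 3875 without library 2 with the block. The 0 Lrig1 calls became 2163 with the block, 40 with DESeq2, 152 with no filter and 1 or 2 in 5 other fits. Further blocked fits gave 972 to 3356. The interaction called 142 genes, and 474 without matching. The cause was not tested.

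Of 33 member calls without the block, 17 were kept in each alternative that changed 1 choice and tested them, 14 of 27 between classes and 3 of 6 in cycling cells. Those 3, Ccne1 and Ccne2 of Krt14+ and Cdkn2a of Nkx2-1+ basal cells, needed the cycling group to pass the filter and are no support, and Cdkn2a was not tested with the gates doubled. No called value changed sign. Rare members (Ccne1, Cdkn2a) and the 13 and 14 cycling cells of library 2 limit precision.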
